A study of Mus musculus with 6 samples.

Results

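The 10 genes described here encode the subunits of the transcription factor NF-kB and a group of inhibitors and related proteins. The subunits are Nfkb1, Nfkb2, Rel, Rela and Relb. Nfkbia, Nfkbie and Tnfaip3 encode inhibitors that NF-kB activity switches on to restrain it. Nfkbiz and Bcl3 encode related nuclear proteins that do not only inhibit, and they are counted with the inhibitors below. They were chosen by gene symbol. All 10 have a row among the 18368 genes of the count table and the 35275 genes of the FPKM table, and all 10 passed the filter on low counts that left 14443 genes for testing. Each library was made from the RNA of about 2000 haematopoietic stem cells (HSCs, the rare marrow cells that renew all blood lineages), sorted from adult mouse bone marrow. There were 3 mutant libraries, with the genotype label Ramp-/- and titles that read Ramp1 Mut, and 3 wild-type libraries, labelled Ramp1+/+. Ramp1 encodes the accessory protein that makes Calcrl a receptor for the neuropeptide CGRP, and by its title the series asks how nociceptive nerves act on the release of HSCs from the marrow. The labels give no strain, sex, allele structure or number of animals per library, and where separate animals are not stated the p-values reflect only library-to-library spread, which may be technical. No further treatment is given in the labels.

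NF-kB proteins act as dimers of Rel-family subunits that are held in the cytoplasm by inhibitors of the IkB family until a kinase complex marks the inhibitor for destruction. In the canonical route, driven by cytokines and microbial products, Rela and Rel pair with the processed product of Nfkb1. In the non-canonical route, driven by receptors such as the lymphotoxin beta receptor, Relb pairs with the processed product of Nfkb2. Nfkbia, Nfkbie and Tnfaip3 are themselves NF-kB targets and close a negative feedback loop, while Nfkbiz and Bcl3 encode atypical IkB proteins that act in the nucleus. In HSCs the pathway is known for roles in survival, self-renewal and the response to inflammatory signals.

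Several of these genes carry NF-kB binding motifs just before an annotated start. Examples of those stretches are shown because NF-kB is known to act on its own inhibitors through such motifs. RefSeq promoter sequences of build GRCm38.p6, the same assembly as the mm10 of the deposited files, were matched by symbol for 7 of the 10 genes. The kappa B consensus motif, searched on both strands in the 250 bases before each annotated start, occurred for 5 of these 7 genes (Tnfaip3, Rel, Nfkbia, Nfkbie and Nfkb2) and for 4.46% of all 27025 genes in the table. Capitals mark the motif matches, which overlap each other on both strands in the Rel stretch and in the first block of Nfkb2. Not all matches are shown. Left out are a further match of Tnfaip3, 125 bases before the same start, and matches 236 and 225 bases before other annotated starts of Nfkb2. Each stretch reads 5′ to 3′ on the strand of its gene.
Nfkbia (chr12:55492652-55492691, minus strand): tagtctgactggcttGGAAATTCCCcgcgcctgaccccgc
Nfkbie (chr17:45555579-45555618, plus strand): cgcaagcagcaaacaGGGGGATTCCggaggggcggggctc
Tnfaip3 (chr10:19015411-19015437, minus strand): actggaatttccatcGGAAATCCCCct
Nfkb2 (chr19:46304683-46304736, plus strand): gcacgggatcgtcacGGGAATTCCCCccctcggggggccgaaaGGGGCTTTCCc
Rel (chr11:23771036-23771076, minus strand): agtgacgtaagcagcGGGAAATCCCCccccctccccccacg
The match of Nfkbia began 29 bases before its annotated start, that of Nfkbie 106 bases and the nearest of Tnfaip3 12 bases before it. That Tnfaip3 start is a RefSeq one, and the stretch lies within the gene span given below, chr10:19000910-19015657. Another annotated start of Tnfaip3 had 0 matches. The searched window of Rela and of Bcl3 held no match of this consensus, which says only that these letters are not in that window. A match is a description of the sequence and not a measurement of binding.

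The libraries followed their labels in the targeted gene. Ramp1 had 3.53, 2.65 and 1.35 FPKM (reads scaled to gene length and library depth) in mutant replicates 1 to 3, against 91.4, 88.3 and 91.0 FPKM in wild-type replicates 1 to 3. The groups did not overlap, with a log2 fold change of -5.17 (SE 0.31; edgeR adjusted p = 0.00146). Total counts per library lay between 22796771 and 26734561. Replicate 1 of each group was the only library of its group with Y-linked reads, 6137 in mutant and 6527 in wild type, against at most 2 reads elsewhere. Stem cell markers were present in both groups: the receptor Kit averaged 368 ± 101 FPKM in mutant and 387 ± 69.7 FPKM in wild type, Procr 65.7 ± 8.62 FPKM in mutant and 56.9 ± 5.03 FPKM in wild type and Slamf1 22 ± 2.56 FPKM in mutant and 23.3 ± 3.98 FPKM in wild type (SD, n = 3 each). Summed over 14 listed genes, stem cell markers ran from 1574 to 1996 FPKM in mutant and from 1564 to 1850 FPKM in wild type. The highest sum of each group was in replicate 1. Neutrophil markers (16 of 17 tested) summed to between 257 and 1235 FPKM in mutant libraries and between 110 and 889 FPKM in wild-type libraries, with the lowest sum of each group in replicate 1. Macrophage and monocyte markers summed to 506 to 654 FPKM in mutant and 516 to 590 FPKM in wild type, of which Lyz2 alone averaged 531 FPKM over the 6 libraries. B cell markers stayed between 36.9 and 49.9 FPKM in mutant and 38.9 and 43.3 FPKM in wild type, mostly from Cd79b, with Pax5 listed at 0 throughout. T and NK markers ranged from 41.0 to 63.6 FPKM in mutant and from 53.7 to 81.4 FPKM in wild type, led by Nkg7, with Cd8a and Ncr1 listed at 0. Erythroid markers ranged from 63.3 to 213 FPKM in mutant and from 14.4 to 89.3 FPKM in wild type, with Hbb-bt the most abundant. No marker passed the test. The part of these cells in the levels below was not tested, and in bulk RNA fewer cells of a type and less RNA per cell cannot be told apart.

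None of the 10 genes passed the test between mutant and wild-type HSCs, which does not show that their levels were alike. The test was edgeR's quasi-likelihood test fitted on all 14443 genes, with a Benjamini-Hochberg adjusted p under 0.05 as threshold, and all 10 adjusted p-values were 0.999. Over all genes tested, 3 passed (0.0208%), 1 higher (0.00692%) and 2 lower (0.0138%) in mutant cells, so 0 calls among 10 genes is close to that background. At an unadjusted p under 0.05 edgeR also called 0 of the 10, with 3.99% of all genes tested called (2.28% higher and 1.7% lower). DESeq2 and limma-voom on the same counts called 0 of the 10 at that level too. Limma on log2 FPKM, fitted on 12139 genes, called 1 of them, Rel, at that unadjusted level and 0 after adjustment. These percentages are edgeR's, and those of the other fits are not given here, so the call of Rel has no background beside it. The log2 fold change (mutant minus wild type) was positive for 6 members and negative for 4, where 50.1% of all genes tested were positive, with a median of 0.066, against a median of 0.000296 over all genes tested. All 10 lay within 0.5 of 0 on this scale, as did 85.4% of all genes tested. The authors' deposited table gives the same sign for all 10, with log2 fold changes from -0.33 for Relb to 0.46 for Rel.

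**Figure D1:**
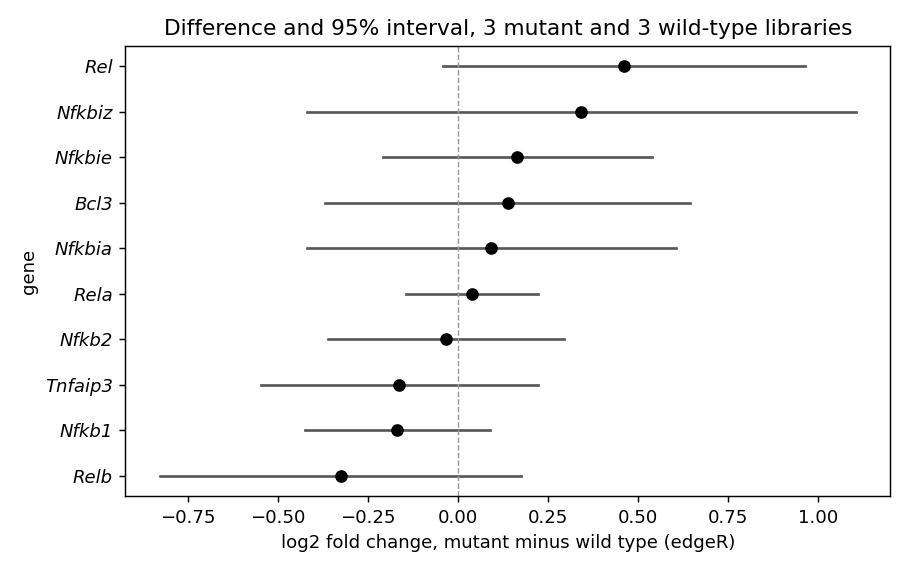
Log2 fold change of each gene (x axis, mutant minus wild type, edgeR) with its 95% interval, ordered by value (y axis); points are estimates from 3 mutant and 3 wild-type libraries. Every interval spans 0; Rel, at 0.46, lies highest and Relb, at -0.33, lowest.

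The canonical subunit Rela and the inhibitor Nfkbia were the most abundant of the 10 transcripts and the atypical nuclear IkB gene Nfkbiz the least. Levels are compared in FPKM, which are per length. Mean levels over the 6 libraries spanned 54.0-fold, from 81.1 FPKM for Rela to 1.5 FPKM for Nfkbiz. Between them came Nfkbia at 74.6, Nfkb1 at 41.0, Nfkbie at 18.5, Bcl3 at 13.7 and Nfkb2 at 10.5 FPKM, followed by Relb at 4.13, Tnfaip3 at 4.01 and Rel at 3.05 FPKM. Neighbours in this order were separated in all 6 libraries for 6 of the 9 steps. Rela exceeded Nfkbia in 4 of 6 libraries, Bcl3 exceeded Nfkb2 in 5 of 6 and Relb exceeded Tnfaip3 in 4 of 6. The order within these pairs thus changed between libraries, and the differences were not tested.

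**Figure D2:**
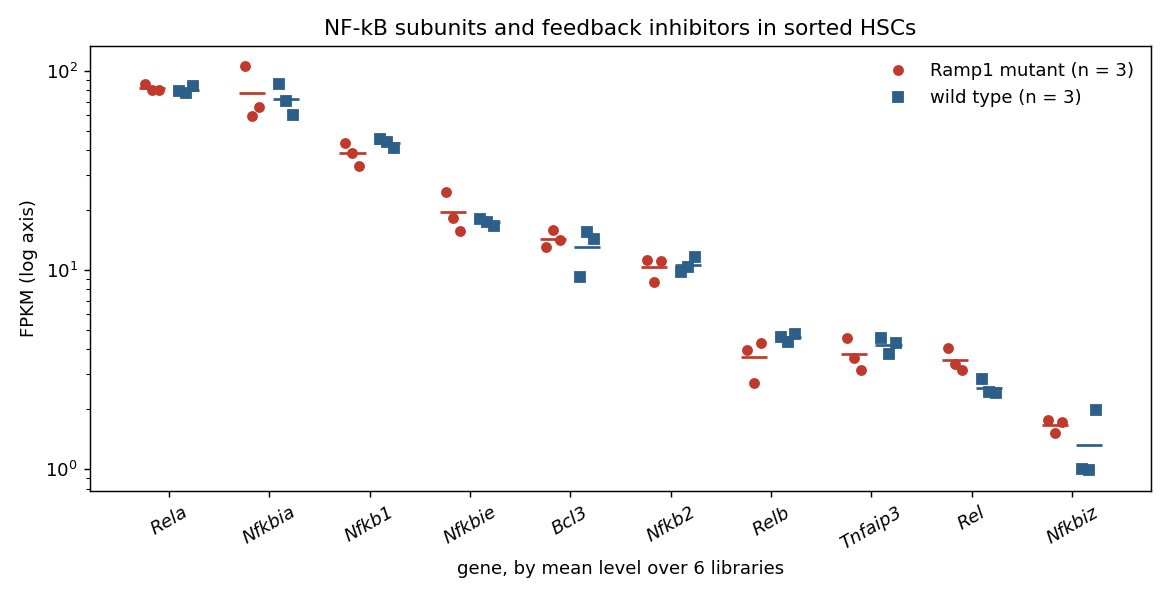
FPKM on a log axis (y) of the 10 genes (x, by mean level); circles are the 3 mutant and squares the 3 wild-type libraries, with lines at the group means. Rela and Nfkbia lie near the top and Nfkbiz near the bottom in both groups; the groups are apart for Rel and Relb and overlap for the other 8 genes.

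The abundant canonical subunits Rela and Nfkb1 overlapped between mutant and wild-type cells. Rela (ENSMUSG00000024927, chr19:5637483-5648130), the main transactivating subunit, had 86.4, 80.4 and 79.9 FPKM in mutant replicates 1 to 3, against 79.1, 77.2 and 83.7 FPKM in wild-type replicates 1 to 3. It was the steadiest of the 10, with a 1.12-fold range over the 6 libraries. Its log2 fold change was 0.04 (SE 0.08, 95% interval -0.14 to 0.22), which as a fold runs from 0.905 to 1.17. Nfkb1 (ENSMUSG00000028163, chr3:135584655-135691547), whose precursor both inhibits and is processed into a DNA-binding subunit, had 43.6, 38.9 and 33.4 FPKM in mutant libraries and 45.3, 43.9 and 41.1 FPKM in wild-type libraries. Mutant replicates 2 and 3 lay below all wild-type libraries and mutant replicate 1 within their range. Its log2 fold change was -0.17 (SE 0.11, 95% interval -0.43 to 0.09), and it was -0.085 without mutant replicate 3.

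Rel, the subunit typical of lymphoid and activated cells, was low but was the only subunit higher in every mutant library than in every wild-type library. Rel (ENSMUSG00000020275, chr11:23741514-23770970) had 4.06, 3.39 and 3.14 FPKM in mutant replicates 1 to 3, against 2.83, 2.44 and 2.42 FPKM in wild-type replicates 1 to 3. These values rest on 218 to 259 reads per mutant library and 158 to 201 reads per wild-type library. The groups did not overlap. With a log2 fold change of 0.46 (SE 0.22, 95% interval -0.04 to 0.96), or 1.38-fold, Rel had the smallest p of the 10, 0.0671 before adjustment by edgeR, which ranked 792nd of 14443. Permuting the 6 FPKM values (exact, two-sided) gave p = 0.1, the smallest that 3 against 3 allow. Of all genes tested, 5.99% were likewise higher without overlap and 4.32% lower, 10.3% together; among the 10 members Rel was the 1 higher and Relb the 1 lower, numbers too small to set apart from that background.

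Of the non-canonical pair, only Relb was apart between the groups, and neither gene passed the test. Relb (ENSMUSG00000002983, chr7:19606217-19629438), the transactivating partner of the pair, had 3.97, 2.72 and 4.31 FPKM in mutant libraries and 4.63, 4.37 and 4.79 FPKM in wild-type libraries. All 3 mutant values were below the wild-type ones, mutant replicate 3 by a narrow margin, and mutant replicate 2 was the lowest. Its log2 fold change was -0.33 (SE 0.22, 95% interval -0.83 to 0.18), and it was -0.15 without mutant replicate 2. Its exact permutation p was also 0.1. Nfkb2 (ENSMUSG00000025225, chr19:46304737-46312090), whose precursor is cut to give the partner of Relb, had 11.3, 8.72 and 11.1 FPKM in mutant libraries and 9.83, 10.4 and 11.6 FPKM in wild-type libraries. Its groups overlapped, with a log2 fold change of -0.033 (SE 0.14, 95% interval -0.36 to 0.30). Mutant replicate 2 was the lowest library for Nfkb2 as well as for Relb. In the GENCODE annotation of the same build the exons of Nfkb2 share 299 bases with Psd and 531 bases with AC114539.1, both on the opposite strand. No source used here says whether counting used strand, so reads there cannot be told apart. Psd had 437 reads over all 6 libraries.

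As shares of the summed FPKM of the 5 subunits, Rela and Nfkb1 made up most of the pool in every library. Rela held 57.9%, 59.9% and 60.6% in mutant replicates 1 to 3 and 55.8%, 55.8% and 58.3% in wild-type replicates 1 to 3. Nfkb1 held 29.2%, 29.0% and 25.3% in mutant and 31.9%, 31.7% and 28.6% in wild type. Both sets of shares overlapped between groups. Rel held 2.72%, 2.53% and 2.38% in mutant and 2.0%, 1.76% and 1.68% in wild type, again without overlap, as its own values had none. The sum itself was 149, 134 and 132 FPKM in mutant and 142, 138 and 144 FPKM in wild type.

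The 3 classical feedback inhibitors overlapped between genotypes. The spread of Nfkbie lay mainly in the mutant libraries (SD 4.5 FPKM, against 0.672 FPKM in wild type). Nfkbia (ENSMUSG00000021025, chr12:55489411-55492647), the prototype cytoplasmic IkB, had 106, 59.4 and 66.1 FPKM in mutant replicates 1 to 3, against 85.7, 70.7 and 59.8 FPKM in wild-type replicates 1 to 3. Replicate 1 was the highest of its group in both genotypes, and the groups overlapped. Its log2 fold change was 0.09 (SE 0.22, 95% interval -0.42 to 0.61) and was -0.18 without mutant replicate 1. Nfkbie (ENSMUSG00000023947, chr17:45555716-45563169), a related cytoplasmic IkB, had 24.6, 18.4 and 15.8 FPKM in mutant libraries and 18.1, 17.5 and 16.7 FPKM in wild-type libraries. The mutant values enclosed the wild-type ones, giving a log2 fold change of 0.17 (SE 0.16, 95% interval -0.21 to 0.54), which was -0.0094 without mutant replicate 1. Tnfaip3 (ENSMUSG00000019850, chr10:19000910-19015657), a ubiquitin-editing enzyme that shuts down signalling upstream of the kinase complex, had 4.55, 3.63 and 3.16 FPKM in mutant libraries and 4.57, 3.81 and 4.31 FPKM in wild-type libraries. Its groups overlapped, with a log2 fold change of -0.16 (SE 0.17, 95% interval -0.55 to 0.22), which was -0.060 without mutant replicate 3 and -0.30 without mutant replicate 1.

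The nuclear IkB proteins were likewise unresolved. Nfkbiz (ENSMUSG00000035356, chr16:55811375-55838899), which directs a subset of secondary NF-kB targets, had 1.77, 1.53 and 1.73 FPKM in mutant libraries and 1.01, 0.986 and 1.99 FPKM in wild-type libraries. Wild-type replicate 3 was above all mutant libraries and the other wild-type libraries below them, on 101 to 191 reads each. The log2 fold change was 0.34 (SE 0.33, 95% interval -0.42 to 1.11), the widest interval of the 10, and it was 0.18 without wild-type replicate 1 and 0.19 without wild-type replicate 2. Without wild-type replicate 3 it was 0.74, the 1 omission of a library that took a member past an unadjusted edgeR p of 0.05, with an adjusted p of 0.999. Bcl3 (ENSMUSG00000053175, chr7:19808462-19822770), which binds subunit homodimers and can activate or repress, had 13.1, 15.9 and 14.2 FPKM in mutant libraries and 9.23, 15.6 and 14.4 FPKM in wild-type libraries. Wild-type replicate 1 stood below the others, and the log2 fold change of 0.14 (SE 0.22, 95% interval -0.37 to 0.65) was -0.065 without it. Bcl3 lies 179 kb from Relb on chromosome 7, the pair having opposite signs; 161 bases of its exons are shared with Gm16175 on the opposite strand.

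Summed over the 5 inhibitors, the level was 150, 98.8 and 101 FPKM in mutant replicates 1 to 3, against 119, 109 and 97.2 FPKM in wild-type replicates 1 to 3. Nfkbia supplied 60.1% to 70.6% of it in mutant and 61.5% to 72.3% in wild type. Per unit of the subunit sum this was 1.0, 0.737 and 0.766 in mutant and 0.837, 0.785 and 0.677 in wild type. Nfkbia per Rela was 1.22, 0.739 and 0.828 in mutant and 1.08, 0.915 and 0.714 in wild type. In both ratios replicate 1 was the highest of its group and the genotypes overlapped.

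The members differed from each other in how steady they were. The pooled SD of log2 CPM (counts scaled to library size) within a genotype was 0.041 for Rela, 0.14 for Nfkb1, 0.15 for Rel and 0.16 for Nfkb2, then 0.19 for Tnfaip3, 0.22 for Nfkbie and 0.24 for Relb. It was largest for Bcl3 at 0.32, Nfkbia at 0.35 and Nfkbiz at 0.40. The median was 0.20 over the 10 members and 0.24 over all genes tested. Nfkbia had 2204 to 3799 reads per library and Nfkbiz 101 to 191, so the spread of Nfkbia did not go with low counts.

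**Figure D3:**
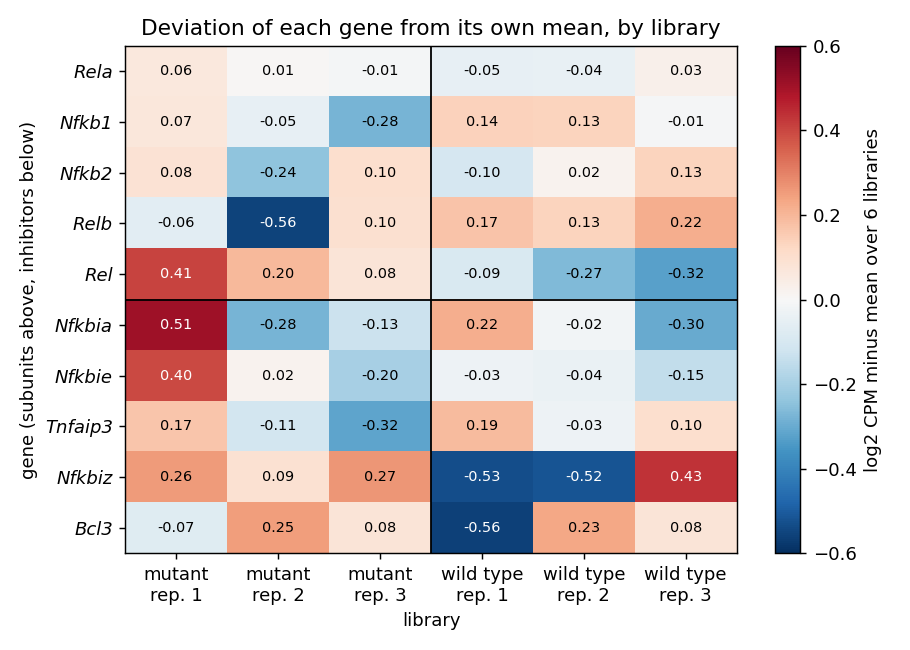
Deviation of each gene (rows, subunits above and inhibitors below the line) from its own mean over the 6 libraries, in log2 CPM, by library (columns, mutant left of wild type); colour and number give the same value. Nfkbia is at 0.51 in mutant replicate 1 and 0.22 in wild-type replicate 1, while Bcl3 is at -0.56 in wild-type replicate 1.

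Several members were highest in the same replicate number of both genotypes. Nfkb1, Rel, Nfkbia, Nfkbie and Tnfaip3 were highest in replicate 1 of both groups, 5 of 10 members where 16.2% of all genes tested did so. For Nfkbia and Tnfaip3 both replicate 1 libraries lay above the other 4: 106 and 85.7 against at most 70.7 FPKM for Nfkbia, and 4.55 and 4.57 against at most 4.31 FPKM for Tnfaip3. Of all genes tested, 10.3% had this pattern. Bcl3 showed the opposite, with 13.1 and 9.23 FPKM in the replicate 1 libraries against at least 14.2 FPKM in the other 4, as 7.1% of all genes tested did; it was the 1 member lowest in replicate 1 of both groups (11.4% of all genes). These counts describe 6 libraries and were noticed in the data, with no test of the split.

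The same replicate 1 libraries were the ones with Y-linked reads and with the lowest summed neutrophil and immediate early FPKM of their groups. Their summed stem cell markers were the highest of their groups. Single genes of the neutrophil and immediate early lists departed from the sums. Among them were Prtn3 (neutrophil) and Maff (immediate early), both highest of the mutant group in replicate 1. S100a8, a neutrophil alarmin, had 75.9, 355 and 445 FPKM in mutant replicates 1 to 3 and 11.8, 99.7 and 288 FPKM in wild-type replicates 1 to 3. Fos, an immediate early transcription factor, had 2.41, 31.4 and 46.8 FPKM in mutant and 1.52, 7.55 and 7.67 FPKM in wild type. Both genes were thus lowest where Nfkbia was highest. The part of cell composition, handling or sex in the members' levels was not tested; with Y-linked reads as a covariate in the fit the log2 fold change of Nfkbia was 0.064, of Tnfaip3 -0.17 and of Bcl3 0.17, and none of the 10 passed. Without both replicate 1 libraries, 2 against 2, the values were -0.048 for Nfkbia, 0.0090 for Nfkbie and 0.013 for Bcl3, while Rel kept 0.44 and Relb -0.37.

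**Figure D4:**
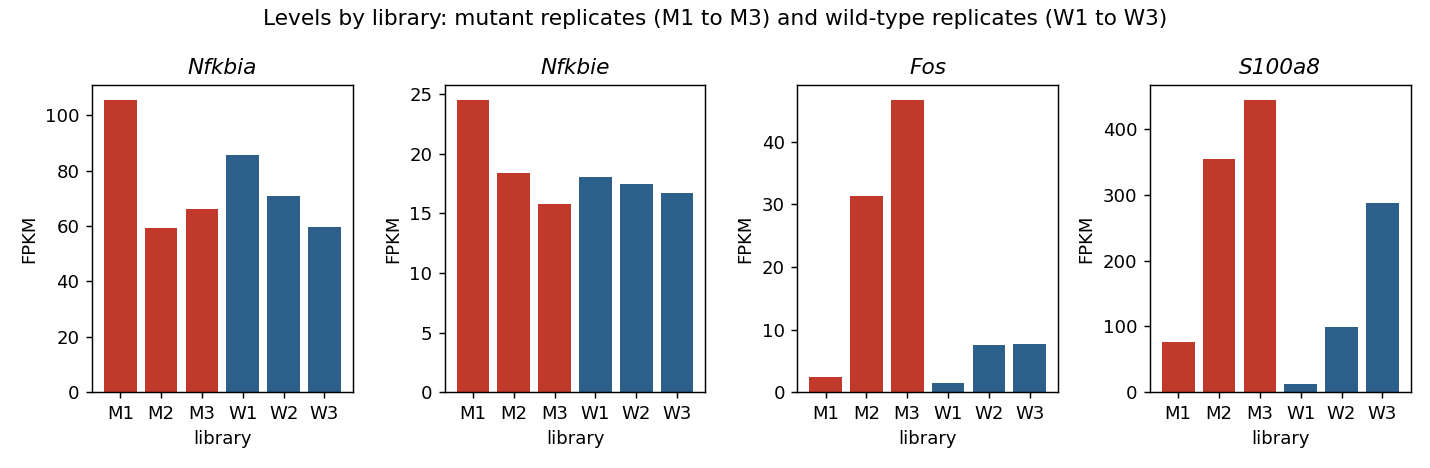
FPKM (y) of Nfkbia, Nfkbie, Fos and S100a8 in each library (x), mutant replicates M1 to M3 in red left of wild-type replicates W1 to W3 in blue; bars start at 0 and each is 1 library. Nfkbia and Nfkbie are highest, and Fos and S100a8 lowest, in M1 and in W1 within their groups.

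Genes whose pattern over the 6 libraries was most like that of Nfkbia were not members of the pathway lists. Among 8898 other tested genes with at least 5 FPKM on average, likeness was measured as the root mean square difference of log2 CPM deviations from each gene's own mean. The nearest were Trim26, a tripartite motif protein, at 0.057, and H1f0, a linker histone, at 0.081. Phkg2, a phosphorylase kinase subunit, followed at 0.090, then Klhdc8b, a kelch-domain protein, at 0.098 and Fance, a Fanconi anaemia protein, at 0.099. Trim26, for example, had 15.9, 9.11 and 10.6 FPKM in mutant libraries and 13.3, 11.3 and 10.2 FPKM in wild-type libraries. The ranking left out the 4 members under 5 FPKM (Relb, Tnfaip3, Rel and Nfkbiz). Among the members it held, Nfkbie came closest, at rank 170 with 0.18, followed by Nfkb1 at rank 1173, Rela at 2156, Nfkb2 at 2782 and Bcl3 at 8176.

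No receptor, adaptor or kinase upstream of the subunits passed the test. Of 46 listed genes, 42 were tested and 0 passed the adjusted threshold, against the 0.0208% of all genes; at an unadjusted p under 0.05, edgeR had 0 higher and 1 lower (2.28% and 1.7% of all genes tested), the receptor Tnfrsf11a at a mean under 1 FPKM, and the median log2 fold change was 0.032. The kinase complex was present in every library. Its catalytic subunit Ikbkb had 31.8, 24.4 and 20.9 FPKM in mutant replicates 1 to 3 and 32.3, 24.0 and 22.6 FPKM in wild-type replicates 1 to 3, so that replicate 1 was again highest in both groups. Chuk, the catalytic subunit that serves the non-canonical route, averaged 14.4 ± 2.25 FPKM in mutant and 14.1 ± 2.88 FPKM in wild type, and the scaffold Ikbkg 15.3 ± 1.2 FPKM in mutant and 15.4 ± 0.851 FPKM in wild type (SD, n = 3 each). The genes with the smallest p among those of at least 1 FPKM were Birc2, a ubiquitin ligase of the receptor complexes (log2 fold change 0.23, SE 0.11), and the interleukin 1 receptor Il1r1 (-0.54, SE 0.28). The kinase adaptors Tab1 (-0.32, SE 0.18) and Tab3 (0.29, SE 0.16) followed. The receptor Tlr9 was listed at 0 in every library.

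Of the ligands that activate the pathway, Hmgb1, a nuclear protein that signals when released, was the most abundant, with a mean of 244 FPKM over the 6 libraries, followed by Ltb. Of 13 listed ligands 7 were tested and 0 passed, with 1 higher and 0 lower at an unadjusted edgeR p under 0.05 (2.28% and 1.7% of all genes tested). Ltb, a lymphotoxin subunit that feeds the non-canonical route, averaged 88.1 ± 20.3 FPKM in mutant and 98.5 ± 14.7 FPKM in wild type (SD, n = 3 each; log2 fold change -0.16, SE 0.17). Il18 averaged 42.2 ± 5.35 FPKM in mutant and 39.8 ± 4.9 FPKM in wild type (SD, n = 3 each). Tnfsf10, the death ligand TRAIL, had 16.9, 17.6 and 16.3 FPKM in mutant and 13.5, 15.1 and 14.1 FPKM in wild type, without overlap (log2 fold change 0.25, SE 0.11; edgeR adjusted p = 0.999). The classical inducers were near the floor: Tnf had 0, 0.0456 and 0.0983 FPKM in mutant and 0, 0.711 and 0 FPKM in wild type, and Il1b 0, 2.26 and 0.951 FPKM in mutant and 0, 0.237 and 0.442 FPKM in wild type. Il1b was thus at 0 in both replicate 1 libraries. For the osteoclast factor Tnfsf11 the log2 fold change was 0.16 (SE 0.44). Lta, Il33 and Cd40lg were listed at 0 in every library.

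Other inhibitors of the pathway were measured in full, and none of the 19 passed. Their median log2 fold change was 0.099, with 13 positive and 6 negative, and 2 higher and 0 lower had an unadjusted edgeR p under 0.05 (2.28% and 1.7% of all genes tested). Nfkbib, the third cytoplasmic IkB, averaged 11.1 ± 0.967 FPKM in mutant and 12.0 ± 1.0 FPKM in wild type (SD, n = 3 each; log2 fold change -0.11, SE 0.15). Nfkbid, a nuclear IkB, had 1.44, 2.48 and 4.96 FPKM in mutant and 4.24, 3.21 and 4.87 FPKM in wild type, with mutant replicate 1 lowest (log2 fold change -0.46, SE 0.44). Tnip3, a partner of the Tnfaip3 protein, had 26.1, 24.3 and 19.4 FPKM in mutant and 20.2, 14.8 and 18.8 FPKM in wild type, with mutant replicate 3 below wild-type replicate 1 (log2 fold change 0.38, SE 0.15; edgeR adjusted p = 0.999). Commd1, which promotes degradation of Rela, had 4.12, 3.48 and 3.83 FPKM in mutant and 2.97, 2.76 and 2.83 FPKM in wild type, without overlap (log2 fold change 0.42, SE 0.16; edgeR adjusted p = 0.999). For Zfp36, an mRNA decay factor, the log2 fold change was 0.64 (SE 0.31), and for the adaptor Tank 0.19 (SE 0.13).

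Target genes of the pathway gave no call in either direction. Of 40 listed, 30 were tested and 0 passed, with 18 positive and 12 negative log2 fold changes and a median of 0.085; at an unadjusted edgeR p under 0.05, 1 was higher and 1 lower (2.28% and 1.7% of all genes tested). The higher one was Tnip3, described above, and the lower one Marcksl1, an actin-regulating protein, at 57.6, 37.8 and 45.8 FPKM in mutant and 63.9, 67.0 and 53.7 FPKM in wild type. Marcksl1 overlapped between groups (log2 fold change -0.39, SE 0.16). For the survival gene Cflar the log2 fold change was 0.26 (SE 0.15), and for Plek -0.37 (SE 0.27). Cxcl1 was listed at 0 in every library. Immediate early genes, which share Zfp36 and Ier3 with these lists, had 21 of 24 tested, 17 positive and 4 negative values, where 50.1% of all genes tested were positive, and a median log2 fold change of 0.35. None passed the adjusted edgeR threshold, with 3 higher and 0 lower at an unadjusted p under 0.05, where all genes tested gave 2.28% and 1.7%. Those 3 were Fos, Junb (0.75, SE 0.30) and Jund (0.71, SE 0.28), subunits of the factor AP-1. All 3 overlapped between groups, with mutant replicate 1 within the wild-type range. Against this median, that of the 5 genes counted as inhibitors was 0.14 and that of the 5 subunits -0.033. The difference between the lists was not tested.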

How the data were processed

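Libraries were grouped by genotype as their labels give it. The authors deposited raw read counts per gene, FPKM values, log2 fold changes (mutant over wild type), p-values, and a signal column of counts scaled by size factors that was left unused. Per the submitters' processing notes, the tools were STAR, HTSeq 0.6.1, CASAVA and DESeq2 and the build mm10, without roles; an annotation release was not found in these sources. In the deposited counts, 0 genes lack reads in mutant replicates 1 and 2 together, so a gene silent in both is not tested; levels come from the longer FPKM table.

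Counts were tested with edgeR 4.0.16 in R 4.3.3 (TMM scaling, filterByExpr, quasi-likelihood F test, Benjamini-Hochberg over 14443 genes, 0.05, two-sided, no covariate). Each SE was computed as the size of the log2 fold change over root F, and intervals are 95%. Log2 CPM used a prior count of 2. The test was checked on simulated counts. Alternatives were other scalings, no filter, DESeq2 1.42.0, limma 3.58.1 (voom, and log2(FPKM + 1) or + 0.1 with at least 1 FPKM in 3 libraries), each library left out, both libraries with Y-linked reads left out, those reads as a covariate, and the replicate number as a block. No 2 of the 6 libraries agreed within sampling noise.

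The members and gene lists were chosen with earlier results of these data known. Named were all members, up to 4 genes per pathway list with the smallest p and at least 1 FPKM, genes listed at 0, the kinase complex, 2 further inhibitors, Tnf and Il1b, and the most abundant gene of each marker list other than that of stem cells, which is not reported here. Hmgb1, Ier3, Tnfrsf11a, Kit, Procr, Slamf1, Prtn3 and Maff were named outside this rule after their values were seen. List genes were matched by symbol, 1 of them by gene identifier.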

Additional observations from a re-analysis of the deposited data

How the results depend on the processing

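None of the 10 genes passed the adjusted threshold under any of 17 alternatives; the smallest adjusted p of a member was 0.642, for Rel with limma on log2(FPKM + 0.1), whose adjusted p otherwise ran up to 1.0. Nfkb1, Rel, Rela, Relb, Nfkbiz and Tnfaip3 kept their sign throughout; Rel ran from 0.34 to 0.53, Relb from -0.47 to -0.15 and Nfkbiz from 0.15 to 0.74. Signs turned in 7 of 170 cases: with wild-type replicate 3 left out Nfkb2 was 0.025 and Nfkbia -0.032; with mutant replicate 2 left out Nfkb2 was 0.075; Nfkbia was -0.18 without mutant replicate 1 and -0.048 without both libraries with Y-linked reads; Nfkbie was -0.0094 without mutant replicate 1; Bcl3 was -0.065 without wild-type replicate 1. With single libraries left out, Nfkb1 ran from -0.25 to -0.085, Rela from 0.022 to 0.064 and Tnfaip3 from -0.30 to -0.060, and the 4 genes whose sign turned ran from -0.098 to 0.075 (Nfkb2), -0.18 to 0.24 (Nfkbia), -0.0094 to 0.29 (Nfkbie) and -0.065 to 0.31 (Bcl3). The members' median ran from -0.044 to 0.094. Over all genes tested DESeq2 called 21 higher and 23 lower, limma-voom 1 lower, no filter 2 higher, and single-library omissions 1 to 2 higher and 1 to 4 lower. There was 1 lower call without both Y-linked libraries or with those reads as a covariate. With the replicate number as a block, 1 gene was higher and 1 lower, with 0 members called. Deviations of log2 CPM from the group mean were correlated between same-numbered libraries over 9962 of the more abundant genes. These correlations, which are not of the levels themselves, were 0.27, 0.020 and -0.14 for replicates 1 to 3. Mutant replicate 2 was closest to wild-type replicate 3 (0.22), so the numbers were not used as pairs. With 3 libraries a group, Nfkbiz could lie anywhere from 0.747-fold to 2.15-fold of wild type and Relb from 0.564-fold to 1.13-fold.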
